A study of Oryctolagus cuniculus with 6 samples.

Results

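The miR-26 family was followed in hypertrophic scars of the rabbit ear, in scars treated with exosomes of adipose-derived stem cells (ADSC-Exos) and in scars treated with saline. Its members were the rows whose name, without the species prefix, copy number and arm, was miR-26a or miR-26b. There were 4 such rows of 467 in the table, namely ocu-miR-26a-5p, ocu-miR-26b-5p, ocu-miR-26a-3p and ocu-miR-26b-3p, called by these names without the prefix from here on. All animals were female New Zealand White rabbits with full-thickness wounds on the ventral face of the ears, 6 to an ear, and both groups received antibiotics and analgesics. The ADSC-Exos group received 100 µg of exosomes in 2 ml, and the other group saline. The series' design text limits the applications to the first 3 days after injury, while the sample labels speak of 21 days of treatment, and scars were taken on day 21. The sources used here do not name the species that gave the stem cells. Each group has 3 small RNA libraries and was assigned 3 rabbits, but no label ties a library to a rabbit. Where libraries came from a common animal, the p-values would cover nothing beyond the spread between these samples.

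A mature miRNA guides Argonaute proteins to messenger RNAs that pair with its seed, the bases near its 5′ end, and lowers their translation and stability. In mammals the miR-26 hairpins lie in introns of the CTDSP genes, which encode small phosphatases of the RNA polymerase II tail, and are broadly expressed. The a and b forms of the 5p arm share their seed in human and mouse and differ in a few later bases. Targets reported in human or mouse cells include EZH2, a histone methyltransferase, and SMAD1, which carries BMP signals and was studied as a miR-26a target in human adipose-derived stem cells. Loss of miR-26a was reported in lung fibrosis of mice.

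In the RefSeq annotation of rabbit assembly mOryCun1.1, MIR26A lies within the span of CTDSP2, next to AVIL and ATP23 among protein-coding genes, and MIR26B lies within that of CTDSP1, between VIL1 and SLC11A1. The annotation holds 1 gene of each name. The table gives a single row for each arm, so reads of a further miR-26a hairpin, as human and mouse have, would not be told apart. The sources used here do not say how reads that match both miR-26a and miR-26b were counted, and the separate levels carry that uncertainty.

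Both 5p arms were among the 16 most abundant of the 467 miRNAs, and neither differed between ADSC-Exos and saline scars beyond the spread of the libraries. Together the 4 rows took 3.72% ± 0.830 of all miRNA reads in ADSC-Exos scars and 3.41% ± 0.291 in saline scars (SD, n = 3 each). Of the 3 rows tested, 0 passed an adjusted p of 0.05, and of all 224 miRNAs tested 0 did (0% called; 8 had an unadjusted p under 0.05, or 3.57%). The groups overlapped for each of the 4 rows, while they did not overlap for 4.93% of all 467 rows and for 4.91% of the 224 tested. The smallest unadjusted p among the 3 rows was 0.594 in limma.

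Levels are given in CPM, which the authors deposited and which set the reads of every library to a common total. A change in an abundant miRNA therefore moves the CPM of all others. The steps between low values place the libraries at about 2260632, 3704783 and 5102540 miRNA reads for ADSC-Exos 1, 2 and 3 and at about 3246743, 2873623 and 3911913 for saline 1, 2 and 3. At these totals miR-26a-5p rests on 30219 to 127035 reads a library and miR-26b-5p on 33925 to 70324, so that counting error is small beside the spread of the libraries. Fibroblast and mesenchyme miRNAs (10 rows of miR-199a, miR-214, miR-21, miR-143 and miR-145) summed to 152746 to 278018 CPM in ADSC-Exos scars and to 175379 to 217129 CPM in saline scars. On the first principal component of the 224 tested miRNAs, with 45.5% of the variance, ADSC-Exos 1 stood at -6.26, away from ADSC-Exos 2 and 3 at 5.15 and 9.78. The saline libraries lay between -3.67 and -2.03.

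miR-26a-5p, the guide arm of the miR-26a hairpin, was at 13367.4, 25954.2 and 24896.5 CPM in ADSC-Exos 1, 2 and 3 and at 23940.7, 17684 and 15770.2 CPM in saline 1, 2 and 3. ADSC-Exos 1 was the lowest of the 6 libraries and ADSC-Exos 2 the highest, so the saline range lay wholly inside that of ADSC-Exos in CPM. ADSC-Exos 3 was highest instead under median-of-ratios scaling and quantile normalization, and with quantile normalization ADSC-Exos 1 tied with saline 3 as the lowest. The mean was 21406 ± 6982 CPM in ADSC-Exos scars and 19132 ± 4273 CPM in saline scars (SD, n = 3 each). In limma-trend with Benjamini-Hochberg adjustment this came to a log2 fold change of 0.12 ± 0.32 (SE; 95% interval -0.60 to 0.85; adjusted p = 0.996). As a fold this interval runs from 0.66 to 1.80, so changes of that size in either direction were not resolved. An exact two-sided permutation test over the 20 arrangements of the libraries gave p = 0.8, where the smallest possible is 0.1.

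Single libraries decided the size and the sign of this fold change. Leaving out ADSC-Exos 1 moved the log2 value to 0.43 (limma, adjusted p = 0.571). It was -0.046 without ADSC-Exos 2, -0.016 without ADSC-Exos 3 and -0.0041 without saline 3 (limma, adjusted p between 0.995 and 1.00). Median-of-ratios scaling gives every library the same median ratio to the geometric means of the miRNAs that are above 0 in all libraries. Under it the log2 value was 0.19, and under quantile normalization 0.12.

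miR-26b-5p, the guide arm of miR-26b, was at 15006.8, 18981.9 and 13260.6 CPM in ADSC-Exos 1, 2 and 3 and at 13339.1, 15298.7 and 15965.5 CPM in saline 1, 2 and 3. In CPM ADSC-Exos 2 was highest and ADSC-Exos 3 lowest, with the saline values in between. This order depended on the scaling, since saline 1 was lowest under median-of-ratios scaling and ADSC-Exos 2 under quantile normalization. The mean was 15749.8 ± 2932 CPM in ADSC-Exos scars and 14868 ± 1365 CPM in saline scars (SD, n = 3 each). On the log2 scale ADSC-Exos scars differed by 0.07 ± 0.25 (SE; 95% interval -0.49 to 0.63; limma, adjusted p = 0.996). The exact permutation p was 0.9. Its sign turned without ADSC-Exos 2 (-0.072), without saline 1 (-0.0051) and under quantile normalization (-0.022).

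miR-26a-3p, the passenger arm of the miR-26a hairpin, was far scarcer, at 90.7, 49.1 and 43.7 CPM in ADSC-Exos 1, 2 and 3 and at 51.7, 41.4 and 58.8 CPM in saline 1, 2 and 3. The library lowest in the 5p arm, ADSC-Exos 1, was here the highest, and the other 5 libraries lay within 41.4 to 58.8 CPM. The mean was 61.2 ± 25.7 CPM in ADSC-Exos scars and 50.6 ± 8.75 CPM in saline scars (SD, n = 3 each). This is a difference of 0.21 ± 0.37 on the log2 scale (SE; 95% interval -0.64 to 1.05; limma, adjusted p = 0.996), which became -0.11 when ADSC-Exos 1 was left out. These levels stand for 119 to 230 reads a library.

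miR-26b-3p, the passenger arm of miR-26b, was at 5.3, 6.7 and 6.7 CPM in ADSC-Exos 1, 2 and 3 and at 4.3, 8 and 7.4 CPM in saline 1, 2 and 3. That is 12 to 34 reads a library, above the 3 reads that a count of 0 allows, which are worth 0.588 to 1.33 CPM and cover counting error only. Its mean of 6.40 CPM over the 6 libraries was under the level filter of 10 CPM, so it was not tested in the main comparison. Fitted with no filter, it gave a log2 fold change of -0.03 ± 0.41 (SE; limma, adjusted p = 1).

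**Figure D1:**
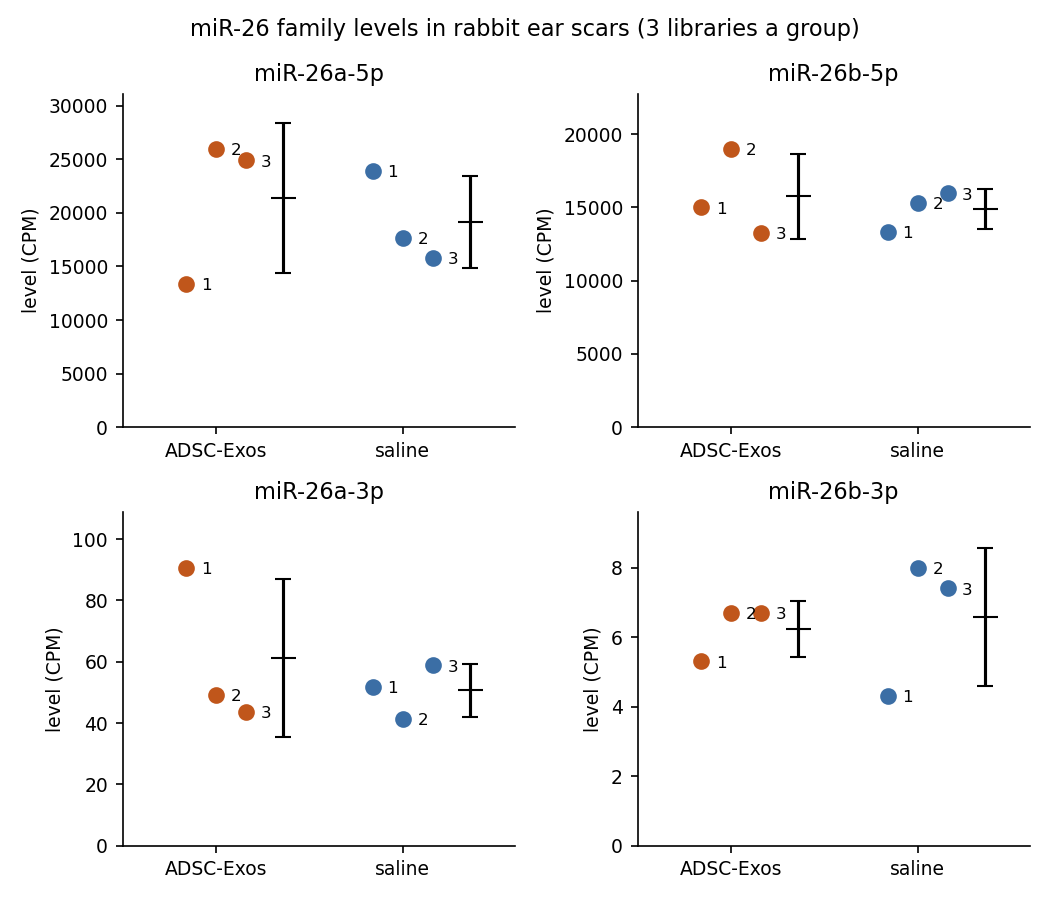
Levels of the 4 miR-26 rows in CPM, each panel with its own linear axis from 0. Points are libraries, numbered by replicate, with ADSC-Exos to the left of saline, and bars give the mean and SD (n = 3 each). The groups overlap in every panel, and ADSC-Exos 1 is lowest for miR-26a-5p (13367.4 CPM) and highest for miR-26a-3p (90.7 CPM).

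**Figure D2:**
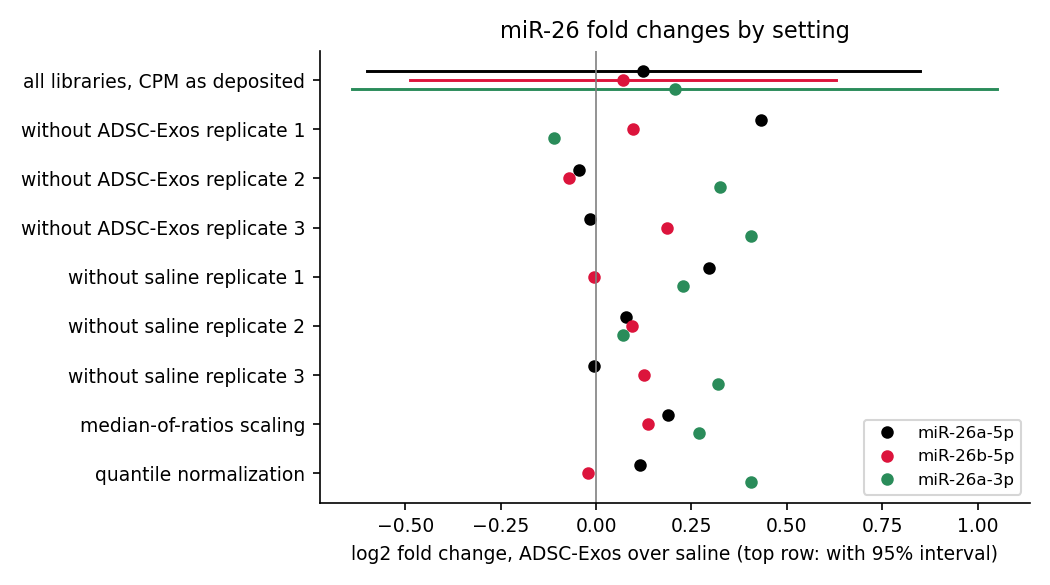
log2 fold changes (ADSC-Exos over saline) of the 3 tested miR-26 rows with all libraries, with 1 library left out and under other scalings. Horizontal bars in the top row are 95% intervals, which all span 0. The point farthest to the right for miR-26a-5p, 0.43, is that without ADSC-Exos 1.

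miR-26a-5p varied more between libraries than miR-26b-5p, a difference that was described and not tested. The SD of log2(CPM + 1) was 0.54 in ADSC-Exos and 0.31 in saline scars for miR-26a-5p, against 0.26 in ADSC-Exos and 0.14 in saline scars for miR-26b-5p. Pooled over both groups it was 0.44 for miR-26a-5p, near the median of 0.46 over the 224 miRNAs tested, and 0.21 for miR-26b-5p, which ranked 21 of 224 from the steadiest. Among the 52 miRNAs averaging 1000 CPM or more, miR-26b-5p ranked 9 and miR-26a-5p 29 from the steadiest. The highest library exceeded the lowest 1.94-fold for miR-26a-5p and 1.43-fold for miR-26b-5p.

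The balance of the forms shifted from library to library. miR-26a-5p was 47.1%, 57.8% and 65.2% of the sum of both 5p arms in ADSC-Exos 1, 2 and 3. Its share was 64.2%, 53.6% and 49.7% in saline 1, 2 and 3. It exceeded miR-26b-5p in 2 of 3 ADSC-Exos and in 2 of 3 saline libraries. This ratio is free of library scaling. Its log2 value averaged 0.40 ± 0.54 in ADSC-Exos scars and 0.35 ± 0.45 in saline scars (SD, n = 3 each). The difference of 0.05 had an exact two-sided permutation p of 0.9, and without ADSC-Exos 1 the difference was 0.34.

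The 5p arm dominated both hairpins. It made up 99.3% to 99.8% of the miR-26a reads and 99.95% to 99.97% of the miR-26b reads. miR-26a-5p exceeded miR-26a-3p 147-fold, 529-fold and 570-fold in ADSC-Exos 1, 2 and 3 and 463-fold, 427-fold and 268-fold in saline 1, 2 and 3. ADSC-Exos 1 thus had the least lopsided arms. For miR-26b the 5p arm exceeded the 3p arm 2831-fold, 2833-fold and 1979-fold in ADSC-Exos 1, 2 and 3 and 3102-fold, 1912-fold and 2158-fold in saline 1, 2 and 3, values that rest on few 3p reads. Of 116 hairpins with both arms above 0 in every library, miR-26b ranked 10 and miR-26a 26 by the mean imbalance of their arms on the log2 scale.

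The arm ratio of miR-26a did not differ between groups beyond the spread. Its log2 value averaged 8.47 ± 1.10 in ADSC-Exos scars and 8.55 ± 0.43 in saline scars (SD, n = 3 each), with an exact permutation p of 1. The difference of -0.09 became 0.55 once ADSC-Exos 1 was left out. Its range over the 6 libraries, 1.95 log2 units, ranked 14 of 57 hairpins with both arms tested, whose median range was 1.59. In all, 8 quantities of the family were compared by exact permutation, and each had an adjusted p of 1 over the 8.

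**Figure D3:**
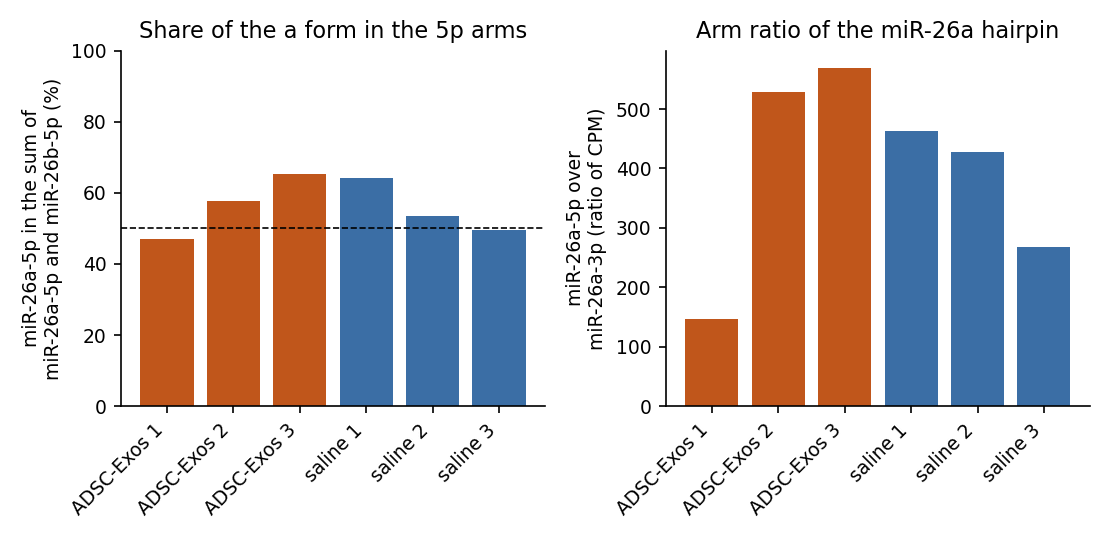
Left, miR-26a-5p as a percentage of the summed 5p arms in each library, with a dashed line at equal shares (50%). Right, the ratio of the 5p to the 3p arm of miR-26a in each library. Orange bars are ADSC-Exos and blue bars saline libraries. ADSC-Exos 1 has the lowest value in both panels, 47.1% and 147-fold.

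By mean level over the 6 libraries miR-26a-5p ranked 13 and miR-26b-5p 16 of 467. Within single libraries their ranks ran from 11 to 16 and from 14 to 16. CPM is not a level per length, but mature miRNAs are of nearly equal length. Just above miR-26a-5p (20269 ± 5325 CPM, SD over the 6 libraries) came miR-21-5p, known to increase in fibrosis of several organs, at 24858 CPM, miR-148a-3p at 24776 CPM and let-7c-5p at 24099 CPM. Just below came miR-199a-5p, a fibroblast-rich miRNA, at 18837 CPM, miR-29a-3p, which represses collagen transcripts, at 16188 CPM and miR-26b-5p at 15308.8 CPM. All 6 of these means lie within 1 SD of that of miR-26a-5p, so its place among them is not resolved by these libraries.

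The miRNAs whose profile over the 6 libraries lay nearest to that of miR-26a-5p were miR-365-3p, miR-10a-5p, miR-195-5p, miR-30e-5p and miR-22-3p. Nearness is the root mean square difference between mean-centred log2(CPM + 1) profiles, which was 0.10, 0.15, 0.16, 0.17 and 0.18 for these, against a median of 0.55 over the 223 other tested miRNAs. miR-365-3p was at 100.4, 169.8 and 202.3 CPM in ADSC-Exos 1, 2 and 3 and at 184.2, 123.5 and 110.2 CPM in saline 1, 2 and 3. All 5 were lowest in ADSC-Exos 1, as miR-26a-5p was, which their choice by nearness largely fixed. miR-10a-5p comes from a HOX gene cluster, and miR-195-5p shares its seed with miR-15 and miR-16.

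miR-26b-5p ranked 56 of 223 in nearness to miR-26a-5p, with a difference of 0.41, and miR-26a-3p ranked 141, with 0.67. The profiles nearest to miR-26b-5p were those of miR-12093-3p (0.08), miR-186-5p (0.13), let-7g-5p (0.14), miR-10b-3p (0.14) and miR-222-3p (0.15), against a median of 0.43. No miRNA stood among the 5 nearest of both. These values describe the same 6 libraries, each with its own depth and scaling common to all its miRNAs, and were not tested.

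**Figure D4:**
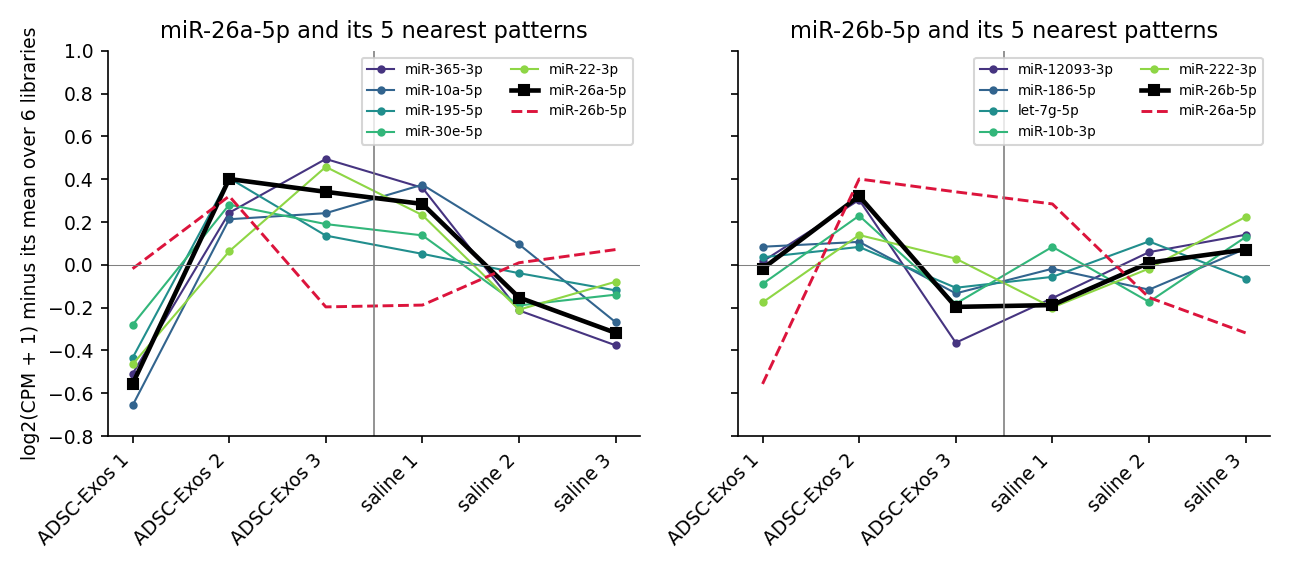
Profiles of miR-26a-5p (left) and miR-26b-5p (right), drawn in black, with the 5 miRNAs nearest to each and, dashed, the other 5p member. The vertical axis is log2(CPM + 1) minus its mean over the 6 libraries, and lines only link the values of a miRNA. On the left all solid profiles, chosen for nearness to miR-26a-5p, are lowest in ADSC-Exos 1, whereas miR-26b-5p is near its mean there.

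Markers of cell types also differed between libraries. In ADSC-Exos 1, where miR-26a-5p was lowest, the 4 cartilage rows summed to 1461 CPM. The cartilage sum was 7602 CPM in ADSC-Exos 2, 6046 CPM in ADSC-Exos 3 and 2109.9, 4189 and 4652 CPM in saline 1, 2 and 3. The 6 skeletal muscle rows summed to 612, 2376 and 1590.5 CPM in ADSC-Exos 1, 2 and 3. Their sum was 1453 to 2134 CPM in saline. miR-1-3p made up most of each sum, with 600.7 CPM in ADSC-Exos 1 and 1282.6 to 2338 CPM in the other libraries. miR-133a-3p was also lowest in ADSC-Exos 1, at 5.8 CPM against 23.3 to 51.1 CPM elsewhere. miR-206-3p did not set ADSC-Exos 1 apart, with 1.2 to 1.8 CPM in every ADSC-Exos library. Its saline levels were 131.5, 145.8 and 4.6 CPM in saline 1, 2 and 3. The fibroblast and mesenchyme sum, 152746 CPM, was also the lowest in ADSC-Exos 1, and most rows of this list were low there. miR-143-3p was at 13577.1 CPM there and at 36862.5 to 68829.7 CPM in the other libraries. miR-143-5p, miR-145-5p, miR-145-3p and miR-214-5p were lowest in ADSC-Exos 1 too. miR-199a-3p and miR-214-3p were lower only in ADSC-Exos 2, and miR-21-5p only in saline 1. The remaining rows went the other way. miR-199a-5p, at 23383.1 CPM in ADSC-Exos 1, was higher only in saline 3 (30001.3 CPM), and miR-21-3p was highest in ADSC-Exos 1 (73.4 CPM). Saline 1 combined a high miR-26a-5p level with the lowest cartilage sum of the saline libraries.

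In the other lists ADSC-Exos 1 was not the lowest library. The 7 epithelium rows summed to 7928 to 12316 CPM in ADSC-Exos scars and to 8146 to 11341 CPM in saline scars. The 9 leukocyte rows summed to 6664 to 10115 CPM in ADSC-Exos scars and to 7961 to 10091 CPM in saline scars. The 5 erythroid rows summed to 109.2 to 472 CPM in ADSC-Exos scars and to 443 to 853 CPM in saline scars, and the 4 neuronal rows to 543 to 1329 CPM in ADSC-Exos scars and to 931 to 1241 CPM in saline scars. The epithelium list also named miR-200a, miR-200b, miR-203 and miR-429, and the neuronal list miR-124. These had no row and do not enter the sums. The part of these differences in the miR-26 levels was not tested, and in bulk tissue fewer cells of a type and less RNA per cell cannot be told apart.

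miR-26 was then set beside the miRNAs reported to share its targets, mostly in human or mouse cells. Over all 224 miRNAs tested, 88 had a log2 fold change above 0 and 136 below 0, with a median of -0.08. The EZH2 list held 12 names, of which 11 had a row, and 13 of its 23 rows passed the level filter. miR-124 had no row, and all rows of miR-137, miR-138 and miR-217 were under the filter. Of the 13 tested rows of the EZH2 list, 6 were above and 7 below 0, with a median of -0.0080, and 0 were called. The 3 miR-26 rows were among the 6 above 0, and the 10 other rows had a median of -0.17. The let-7 miRNAs, which restrain proliferation, led this list in level, with let-7a-5p at 94451 ± 938 CPM in ADSC-Exos scars and 96681 ± 21210 CPM in saline scars (SD, n = 3 each). let-7b-5p and let-7c-5p had log2 fold changes of -0.19 ± 0.26 and -0.28 ± 0.23 (SE), and miR-101-3p, another known EZH2 repressor, was at 0.28. The list median was -0.19 without ADSC-Exos 1 and 0.07 without saline 2, and it was 0.06 under median-of-ratios scaling.

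Of the 23 tested rows of the SMAD1 and BMP receptor list, 14 were above and 9 below 0, with a median of 0.05, and 0 were called. Its most abundant members were miR-199a-3p at -0.015 ± 0.24 and miR-125b-5p at -0.67 ± 0.61 (SE), followed by miR-26a-5p. The value of miR-125b-5p rested on ADSC-Exos 3, at 13017.6 CPM. ADSC-Exos 1 and 2, at 66026.3 and 81450.3 CPM, lay within the saline range of 48309.1 to 85150.7 CPM. The miR-30 family, which shares this list and is expressed in most tissues, ran from -0.24 for miR-30c-3p to 0.41 for miR-30b-5p. The list median turned to -0.046 without ADSC-Exos 2 and to -0.0093 without saline 1.

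The list of miRNAs with reported anti-fibrotic roles held 21 names, of which 18 had a row. Among them miR-26a-5p, miR-29a-3p and miR-26b-5p had the highest means over the 6 libraries, in an order that changed between libraries. miR-29c-3p was above miR-26b-5p in ADSC-Exos 2 and above miR-29a-3p in saline 3. Of 29 tested rows, 21 were above and 8 below 0, with a median of 0.10, and 0 were called. The median over leave-outs ran from 0.015 without ADSC-Exos 2 to 0.21 without ADSC-Exos 3. miR-29a-3p was at 19649 ± 8272 CPM in ADSC-Exos scars and 12727 ± 1349 CPM in saline scars (SD, n = 3 each), or 0.55 ± 0.33 (SE) as a log2 fold change. The miR-26 rows had 0.07 to 0.21. The other 26 rows of the list had a median of 0.09 and reached from -0.70 for miR-133a-3p to 3.37 for miR-194-3p.

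The last list holds miRNAs that are expressed in most cell types, and 15 of its 18 names had a row. Names were matched exactly, so miR-16a-5p, miR-16b-5p and miR-103a-3p did not count for the listed miR-16 and miR-103. Their log2 fold changes were -0.08, -0.24 and -0.15. Of its 23 tested rows, 16 were above and 7 below 0, with a median of 0.05, and 0 were called. Without the 3 miR-26 rows the median of the other 20 was 0.04. let-7i-5p and let-7f-5p, its most abundant members, had log2 fold changes of -0.07 ± 0.23 and 0.05 ± 0.20 (SE). The median turned to -0.025 without ADSC-Exos 1 and to -0.0048 without ADSC-Exos 2. The 4 lists share members, and both arms of a hairpin count as rows, although a target is often known for 1 arm only.

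**Figure D5:**
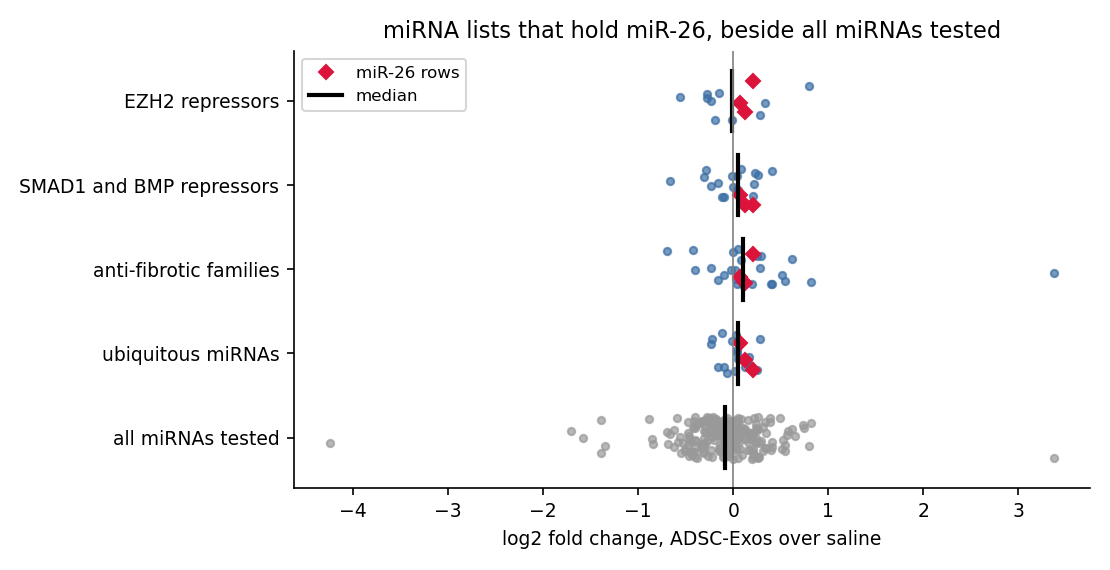
log2 fold changes (ADSC-Exos over saline) of the tested rows of 4 lists that hold miR-26, and of all 224 miRNAs tested. Points are miRNAs, spread vertically at random, red diamonds are the miR-26 rows and black bars are medians. The miR-26 rows lie at 0.07 to 0.21 in every list, and the list medians lie between -0.0080 and 0.10, beside -0.08 over all miRNAs tested.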

How the data were processed

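The authors deposited CPM values of 467 miRNAs in 6 libraries, given to 1 decimal (a single value has 2). Per the submitters' processing notes, the tools were DESeq2 1.30.1, HTSeq 2.0.3, STAR 2.7.6a, Trimmomatic 0.40 and FastQC 1.0.0, named there without roles. The sources used here do not give the genome build, annotation, strand or handling of shared reads. Read totals were estimated as the number for which values are multiples of 1 read within 0.05 CPM.

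limma 3.58.1 in R 4.3.3 fitted limma-trend to log2(CPM + 1) of the 224 miRNAs averaging 10 CPM or more, two-sided, with group as the only term and Benjamini-Hochberg adjustment over all of them. It was checked on simulated data. The pseudocount makes fold changes of low miRNAs too small. Exact permutation tests used 20 arrangements.

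Named were all miR-26 rows, the 5 nearest profiles, the 3 neighbours on each side in level and, from each list, the 3 members with the highest mean. Other list members and the profiles nearest to miR-26b-5p were named after their values were seen. A rule by shared seed was not used here, and 1 planned list is not reported here. The members and lists were chosen with earlier results of these data known. Alternatives were other scalings, pseudocounts of 0.1 and 10 CPM, no filter, a mean of at least 100 CPM, the replicate block, each library left out, and limma-voom on the estimated reads. List medians by setting and the 2 ratios without ADSC-Exos 1 were added after seeing the data.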

Additional observations from a re-analysis of the deposited data

How the results depend on the processing

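No miR-26 row was called under any alternative run. With each library left out in turn, the log2 fold change ran from -0.046 to 0.43 for miR-26a-5p, from -0.072 to 0.19 for miR-26b-5p and from -0.11 to 0.41 for miR-26a-3p, and the median of the EZH2 list from -0.19 to 0.072. miR-26b-5p was at -0.022 under quantile normalization, and both pseudocounts, no filter and limma-voom kept the 3 rows of the main comparison above 0. A mean of at least 100 CPM kept both 5p rows above 0 and removed miR-26a-3p. The adjusted p over all alternatives ran from 0.571 to 1.00 for miR-26a-5p and from 0.978 to 0.999 for miR-26b-5p (limma). The count of 0 called miRNAs ran from 0 to 4 over leave-outs, being 4 without ADSC-Exos 1 (miR-144-3p, miR-194-3p, miR-451-5p and miR-486-5p) and 1 without saline 3 (miR-206-3p). The cause was not tested.

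Deviations of same-numbered libraries from their group mean correlated at -0.13 to -0.018 across 224 miRNAs, and 0 of 6 libraries correlated best with their own number. With 3 libraries a group, each centred on its group mean, these correlations are constrained and cannot exclude a pairing. With the replicate number as a block miR-26a-5p kept a log2 fold change of 0.12 (adjusted p = 0.996, limma), and 0 miRNAs were called. edgeR was planned only for raw counts. Neither it nor DESeq2 was run, because the deposited values are CPM. At the estimated totals 1 read is worth 0.196 to 0.442 CPM. For both 5p rows the spread of the 3 libraries a group limits the precision, whereas miR-26b-3p, with 12 to 34 reads a library, is limited by depth too.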
